A study of Mus musculus with 10 samples.

Results

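The nuclear genes for subunits of the oxidative phosphorylation complexes were compared between normal mouse lung and lung squamous cell carcinoma (SCC). Members were taken by gene symbol, and 83 of the 24421 genes in the table matched: 36 for complex I, 4 for complex II, 8 for complex III, 18 for complex IV and 17 for complex V. All mice were of the NIH Swiss strain with a genotype given as wt. The 5 normal lung libraries came from animals without treatment, and the 5 SCC libraries from lung tumours induced with NTCU (N-nitroso-tris-chloroethylurea), a carcinogen used to raise squamous tumours in mouse lung. Regions were laser-captured from formalin-fixed, paraffin-embedded sections, and stranded total RNA libraries were made with a kit for picogram inputs. Age, the number of animals and the choice of regions are not known from the labels. The labels tie no library to an animal, so every p-value here measures the spread between libraries and is too small if regions shared an animal.

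Oxidative phosphorylation passes electrons from NADH (complex I) and succinate (complex II) through complex III to oxygen at complex IV, and ATP synthase (complex V) uses the proton gradient they build. Most subunits are encoded in the nucleus, while a core set of complexes I, III, IV and V is encoded by mitochondrial DNA, whose genes are not analysed here. In lung, alveolar type 2 cells, ciliated cells and muscle of the vessel walls are rich in mitochondria, and tumours differ widely in how far they rely on respiration. The naming rule also takes in 3 genes that are usually described as assembly or associated factors (Atp5s, Atp5sl and Cox7a2l), and Ndufa4, named for complex I, is now placed with complex IV.

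The libraries held 1004105 to 6817106 counts. The members took 0.212% to 0.318% of the counts in normal lung, and 0.176%, 0.306%, 0.134%, 0.134% and 0.317% in SCC 1 to SCC 5. Marker genes followed the labels: the summed CPM (counts scaled to 1000000 per library) of 10 squamous and basal markers was 1.09 to 9.84 in normal lung against 910 to 6406 in SCC, and that of 12 alveolar type 2 markers was 10210 to 13340 in normal lung against 879 to 1347 in SCC. Counts on 1453 olfactory, vomeronasal and trace amine receptor genes, most of which lung is not known to use, differed between libraries. Per kb of coding length this receptor signal was 0.0417 to 0.207 CPM in normal lung, 0.593 in SCC 2, 0.420 in SCC 5, but 3.26, 3.31 and 3.52 in SCC 1, SCC 3 and SCC 4. The median change, the counts of calls and the called members are given with and without these last 3 libraries. In laser-captured tissue, fewer cells of a type and less RNA per cell cannot be told apart.

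Few subunit genes passed the test on their own, and those that did were lower in SCC. Of the 74 members with enough counts to test, 6 fell in SCC and 0 rose (quasi-likelihood test of edgeR, with calls at a Benjamini-Hochberg adjusted p of less than 0.05). That is 8.11% of the tested members falling, beside 8.68% of all 13203 genes tested, and 0 rising beside 12.5% of all genes. The members that fell were Ndufv1, Ndufa3 and Ndufa5 of complex I, Sdha and Sdhc of complex II, and Cox4i2 of complex IV. At an unadjusted edgeR p under 0.05, 8 of the 74 members were lower and 3 were higher, beside 1796 and 2477 of the 13203 genes. The DESeq2 Wald test called 6 lower and 3 higher, beside 9.37% and 16.6% of all genes. The median log2 fold change of the tested members was -0.33, beside 0.07 for all genes tested, and 58 of the 74 members (78.4%) had a negative value, beside 47.4% of all genes. The median standard error of a member was 0.59 on this scale. Other scaling gave 1 higher and 5 lower calls with DESeq2 size factors (13.4% and 7.71% of all genes), 1 and 3 with upper-quartile factors (14.9% and 6.8%), and 1 and 2 with total counts alone (14.7% and 6.68%). With no filter on low counts there were 2 higher and 11 lower calls among the 83 members, beside 23.9% and 9.04% of all genes. Those calls include Cox8c (higher) and Atp5s (lower), which are below the main filter and are given no call below. Leaving out SCC 1 or SCC 4 left 2 lower calls, beside 7.36% and 7.37% of all genes.

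**Figure D1:**
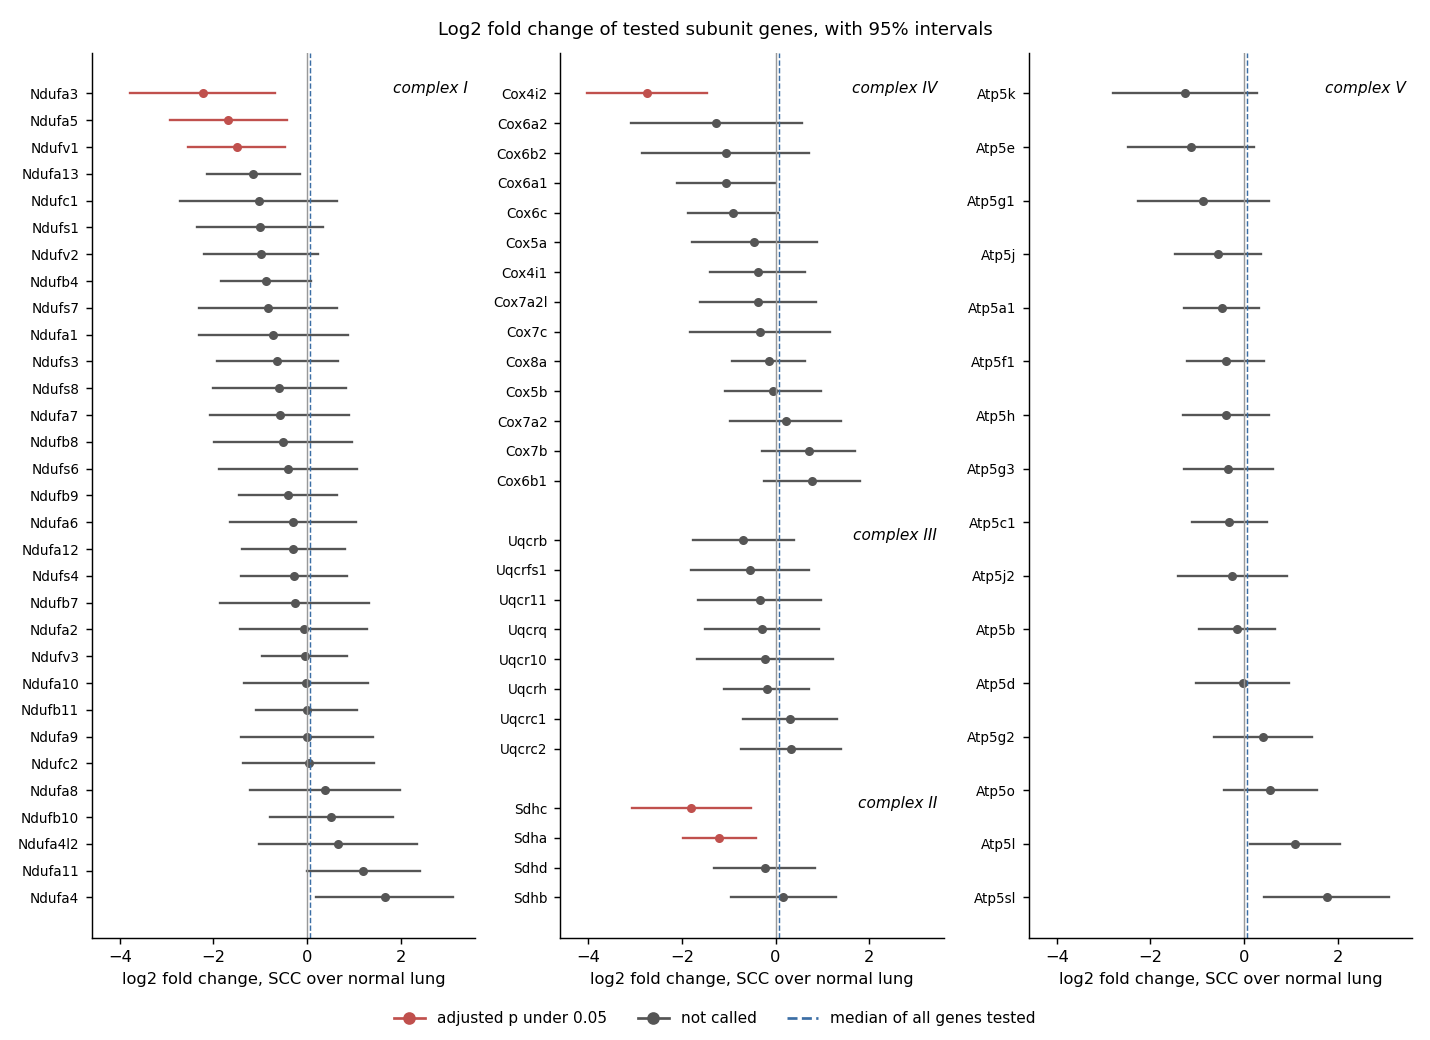
Log2 fold change (x axis, SCC over normal lung) of 73 of the 74 tested subunit genes, in 3 panels by complex; points are edgeR estimates, bars their 95% intervals, and the dashed line the median of all genes tested. The 6 called members, in red, all lie left of 0, and Cox4i2 lies farthest left at -2.74.

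The separation between the groups was seldom complete. In 2 members, Ndufv1 and Cox4i2, every SCC library was below every normal library (2.70% of those tested, beside 6.93% of all genes), and no member had every SCC library above every normal library, which 8.04% of all genes did. Coding sequences of the members are short, with a median of 408 bases and a range of 156 to 2181. Among all 892 tested genes with a coding length of at most 500 bases, 8.63% were called lower, 8.52% were called higher and the median was -0.07, while the 44 members of that class had 2 lower calls, 0 higher calls and a median of -0.33.

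The 5 SCC libraries did not move together. The summed CPM of all members was 2322, 2369, 3218, 2474 and 2901 across normal 1 to 5, against 1705, 2873, 1334, 1306 and 3401 across SCC 1 to 5. SCC 1, SCC 3 and SCC 4 lay below every normal library, SCC 2 lay within the normal range, and SCC 5 lay above it. The median member stood at -0.99, 0.25, -0.75, -0.80 and 0.17 log2 units from the normal mean in SCC 1 to SCC 5. In SCC 1, SCC 3 and SCC 4, 32, 30 and 36 of the 74 tested members (43.2%, 40.5% and 48.6%) were below all normal libraries, beside 28.8%, 25.4% and 26.8% of all genes tested. In SCC 2 and SCC 5 there were 8 and 12 such members (10.8% and 16.2%), beside 20.8% and 24.7% of all genes. Members above all normal libraries numbered 15 in SCC 2 and 20 in SCC 5 (20.3% and 27%), near the 23.7% and 28.3% of all genes, but 8, 2 and 5 in SCC 1, SCC 3 and SCC 4 (10.8%, 2.7% and 6.76%), beside 30.6%, 29.9% and 30.3% of all genes. The 3 libraries with low sums are those with high receptor signal, and their median counts per member (10, 25 and 13) were below those of SCC 2 (109) and SCC 5 (56). Their total counts were lower too, at 1060726, 1816675 and 1004105 against 3691806 in SCC 2 and 2449172 in SCC 5. Normal 2 and normal 5 had median counts of 26 and 31 at totals of 1462952 and 1457641.

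**Figure D2:**
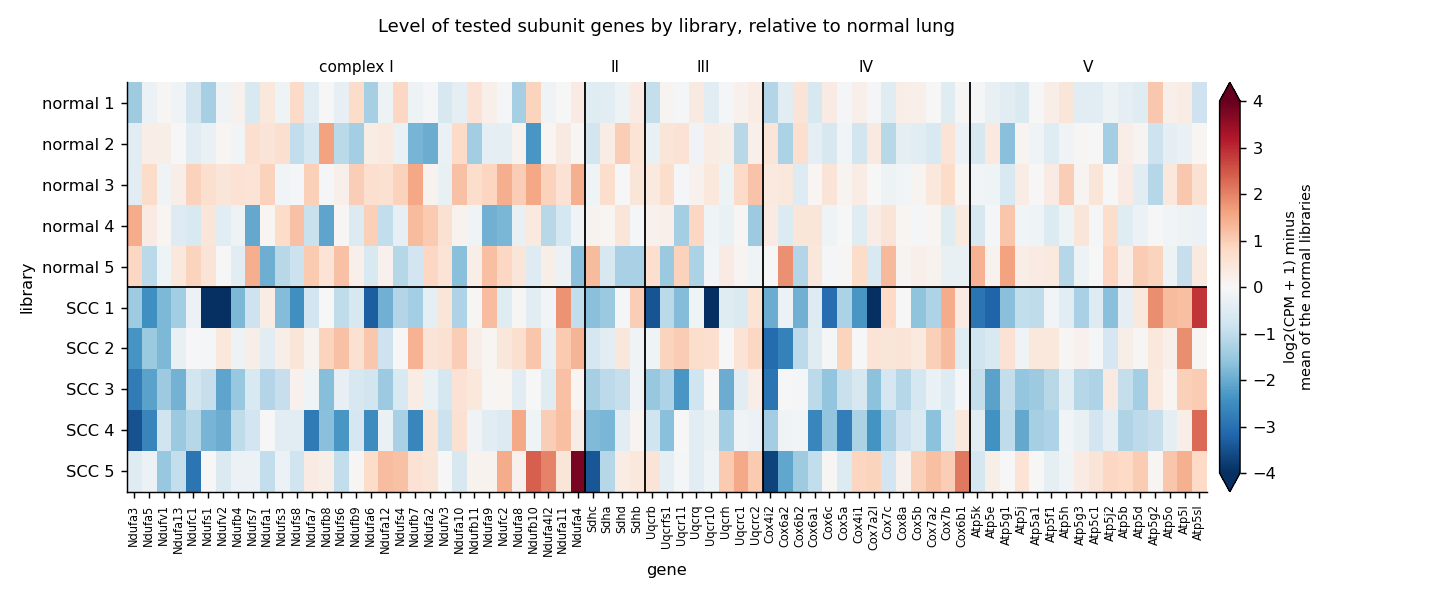
Level of 73 of the 74 tested subunit genes (columns, ordered by complex and by fold change) in each library (rows), as log2(CPM + 1) minus the mean of the 5 normal libraries; colours end at 4 log2 units in either direction. The rows of SCC 1, SCC 3 and SCC 4 are mostly blue (lower), while those of SCC 2 and SCC 5 are mixed, with Ndufa4 the strongest red in SCC 5.

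With SCC 2 and SCC 5 alone against normal lung, 79 members could be tested, 1 fell (Cox4i2) and 1 rose (Ndufa4), beside 5.16% and 4.14% of all genes, and the median member was at 0.18. The medians of complexes I to V were then 0.086, -0.44, 0.32, 0.33 and 0.18. With 2 SCC libraries fewer calls were made over all genes too, and of the members no longer called Ndufv1 (-1.77) and Sdhc (-1.73) had log2 fold changes about as large as with all libraries. When a background in proportion to coding length and receptor signal was subtracted from every gene, the median stayed negative at -0.22, with 3 members lower (Cox4i2, Ndufv1 and Sdha) and 0 higher, beside 7.54% and 9.79% of all genes. This background came to a median of 3.13% of a tested member's SCC counts, with a range of 0.454% to 19.8%. These shares rest on coding length alone and take no account of untranslated exons, which can be long. Sdhc, for example, has 507 coding bases in a transcript of 3171. With the receptor signal as a covariate the median was 0.63, with 1 member lower (Cox4i2) and 3 higher (Ndufa4, Atp5l and Ndufb10, the last pair chosen after their values were seen), beside 3.7% and 4.48% of all genes. Every SCC library had more receptor signal than every normal library, so the covariate fit extrapolates to a signal the groups do not share. The SE of Cox4i2 was 1.25 in that fit, beside 0.63 in the main fit. Limma-voom with quality weights gave a median of -0.82 for the members, beside 0.09 for all genes. It called 25 members lower and 2 higher (33.8% and 2.7% of the 74), beside 20.9% and 24.7% of all genes, more than the other fits called.

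**Figure D3:**
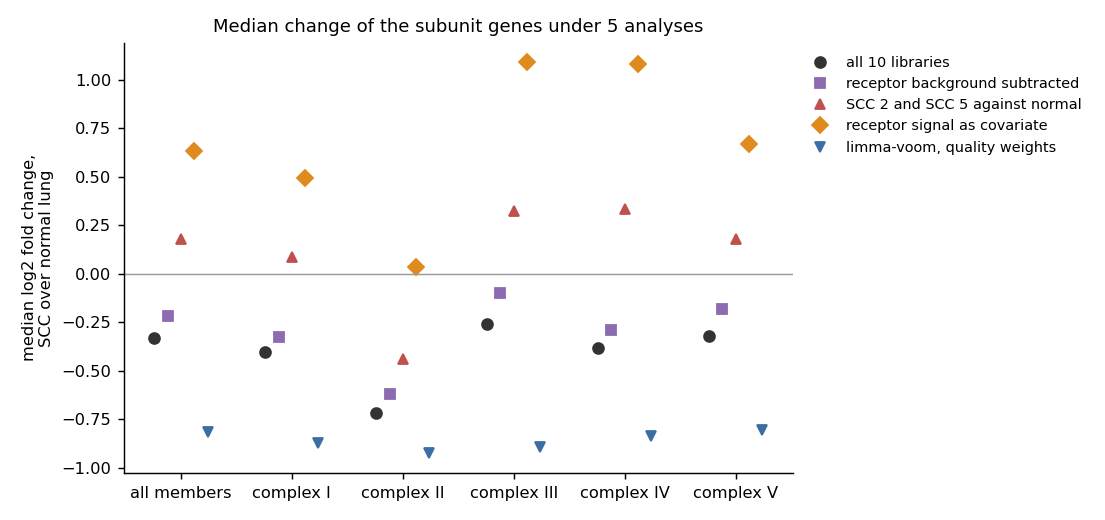
Median log2 fold change (y axis, SCC over normal lung) of all tested members and of each complex under 5 analyses, given by symbol and colour. The median of all members runs from -0.82 with limma-voom to 0.63 with the receptor covariate, and complex II gives the lowest median in each of the 5 analyses.

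Complex II, succinate dehydrogenase, links the citric acid cycle to the respiratory chain, and all of its subunits are nuclear. It had 2 of 4 members lower, beside 8.68% of all genes, and a median log2 fold change of -0.72. The summed CPM of its 4 genes was 140, 219, 242, 190 and 151 across normal 1 to 5, against 103, 142, 87.9, 73.1 and 102 across SCC 1 to 5. All SCC libraries but SCC 2 were below every normal library, and SCC 2 overlapped only normal 1. SCC 5, which had the highest sum over all members, thus stood below the normal range for the complex II sum. Sdha made up 108 of the mean sum of 188 CPM in normal lung. Sdhb and Sdhd (the last chosen after its values were seen) had 24.6 and 29.4 CPM in SCC 5. Both values lay within the normal ranges of 6.81 to 26.7 and 9.08 to 48.0 CPM. No SCC library was below the normal range of either gene.

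Sdha, the flavoprotein that oxidises succinate, had 76.5, 127, 166, 107 and 65.1 CPM across normal 1 to 5, against 35.7, 75.6, 48.6, 28.2 and 46.0 CPM across SCC 1 to 5. Only SCC 2 reached into the normal range. The mean was 108 ± 40.7 CPM in normal lung and 46.8 ± 18.0 CPM in SCC (SD, n = 5 each), a log2 fold change of -1.20 (SE 0.38, edgeR adjusted p = 0.0248). The call was lost without normal 3 (adjusted p = 0.0728), SCC 1 (0.0526) or SCC 4 (0.0583), and with SCC 2 and SCC 5 alone the value was -0.87 (adjusted p = 0.271). With the receptor covariate it was -0.29 (adjusted p = 0.845).

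Sdhc, 1 of the membrane anchors, had 20.0, 16.8, 25.4, 31.6 and 70.4 CPM across normal 1 to 5, against 8.23, 17.6, 10.9, 7.79 and 1.75 CPM across SCC 1 to 5. SCC 2 again overlapped the lowest normal library, and SCC 5 was the lowest of all. The log2 fold change was -1.80 (SE 0.62, edgeR adjusted p = 0.0403). The call was lost, at log2 fold changes of -1.53, -1.79 and -1.83, without normal 5 (adjusted p = 0.0982), SCC 1 (0.0605) or SCC 4 (0.0589). The value was -1.73 with SCC 2 and SCC 5 alone (adjusted p = 0.233). The other members, the iron-sulfur subunit Sdhb at 0.17 (SE 0.54) and the second anchor Sdhd (chosen after its values were seen) at -0.23 (SE 0.52), did not pass the test. Whether subunits of complex II differed among themselves was not tested.

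Complex I, the NADH dehydrogenase, had 3 of 32 tested members lower (9.38%, beside 8.68% of all genes), 0 higher and a median of -0.40. Its summed CPM was 642 to 1124 in normal lung, 829 and 1071 in SCC 2 and SCC 5 but 382, 410 and 394 in SCC 1, SCC 3 and SCC 4. Without Ndufa4 and its paralog Ndufa4l2 the sum was 624 to 1080 in normal lung and 874 in SCC 5. Ndufv1 carries the flavin that accepts electrons from NADH. It had 35.2, 40.4, 30.8, 35.9 and 30.3 CPM across normal 1 to 5, against 9.15, 9.16, 12, 19.5 and 11.4 CPM across SCC 1 to 5. The groups did not overlap, and the normal libraries lay close together at 34.5 ± 4.16 CPM against 12.2 ± 4.25 CPM in SCC (SD, n = 5 each). The log2 fold change was -1.50 (SE 0.50, edgeR adjusted p = 0.0333). With SCC 2 and SCC 5 alone it was -1.77 (adjusted p = 0.102), and the call was also lost without SCC 1 (adjusted p = 0.0532) or SCC 3 (0.0538). The estimated background was 19.8% of its SCC counts, the highest share among the tested members, and the call held after that background was subtracted.

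Ndufa5 and Ndufa3 are accessory subunits, the first of the arm in the matrix and the second of the arm in the membrane. Ndufa5 had 25.4, 35.8, 49.9, 37.3 and 13.6 CPM across normal 1 to 5, against 4.57, 9.92, 6.01, 3.90 and 25.0 CPM across SCC 1 to 5. SCC 5 lay within the normal range and the other SCC libraries lay below it. The log2 fold change was -1.68 (SE 0.61, edgeR adjusted p = 0.0483), with adjusted p between 0.00469 and 0.126 as each library was left out. The call was lost without normal 3, normal 4, SCC 1, SCC 2, SCC 3 or SCC 4. With SCC 2 and SCC 5 alone the value was -0.95 (adjusted p = 0.467), and with the receptor covariate it was 0.36 (adjusted p = 0.874).

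Ndufa3 had 7.26, 15.2, 15.5, 61.4 and 38.6 CPM across normal 1 to 5, against 7.32, 3.31, 2.18, 0.974 and 14.9 CPM across SCC 1 to 5. The groups overlapped, with SCC 1 and SCC 5 above normal 1. Counts of Ndufa3 were 8, 13, 4, 1 and 34 across SCC 1 to 5, so it met the main filter through normal lung. The log2 fold change was -2.23 (SE 0.75, edgeR adjusted p = 0.0346), and the call was lost without normal 4 (log2 -1.80, adjusted p = 0.129), SCC 2 (adjusted p = 0.0637), SCC 3 (0.0631) or SCC 4 (0.0593). The value was -1.65 with SCC 2 and SCC 5 alone (adjusted p = 0.306). Exons of Ndufa3 overlap those of Tfpt on the opposite strand, so its reads are certain only if the counting used strand.

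Other core subunits of complex I did not pass the test. Ndufs1, which holds iron-sulfur clusters, had a log2 fold change of -1.01 (SE 0.65) and counts of 0 in SCC 1. Ndufs3, of the arm in the matrix, was at -0.63 (SE 0.63). In all, 26 of the 32 tested members of complex I (81.2%) had a negative value, beside 47.4% of all genes.

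Ndufa4 stood apart in 1 library. It had 15.2, 12.2, 33.3, 10.5 and 3.03 CPM across normal 1 to 5, against 5.49, 31.8, 12.6, 14.6 and 175 CPM across SCC 1 to 5. All SCC libraries other than SCC 5 lay within the normal range. The log2 fold change over all libraries was 1.66 (SE 0.71, edgeR adjusted p = 0.102), and without SCC 5 it was 0.09 (adjusted p = 0.943). Its rise with SCC 2 and SCC 5 alone (2.69, SE 0.66, adjusted p = 0.0107) therefore rests on SCC 5. Its paralog Ndufa4l2, known as a gene induced in hypoxia, had 1.75 to 10.4 CPM in normal lung and 4.57, 3.82, 3.28, 10.7 and 22.4 CPM in SCC 1 to SCC 5 (log2 0.66, SE 0.83, adjusted p = 0.631).

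Complex III, the cytochrome c reductase, had 0 of 8 members called (all genes: 8.68% lower, 12.5% higher) and a median of -0.26. Its summed CPM was 234 to 325 in normal lung, 338 and 423 in SCC 2 and SCC 5 but 139, 119 and 154 in SCC 1, SCC 3 and SCC 4, so that the tumour libraries lay on both sides of the normal range with none inside it. Uqcrh, the hinge protein and the most abundant member by mean CPM over all libraries, had 65.3 to 99.9 CPM in normal lung and 56.7, 78.1, 19.1, 30.2 and 164 CPM in SCC 1 to SCC 5 (log2 -0.19, SE 0.44). Uqcrfs1, the Rieske iron-sulfur protein, was at -0.54 (SE 0.62), and the core protein Uqcrc1 at 0.30 (SE 0.49).

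**Figure D4:**
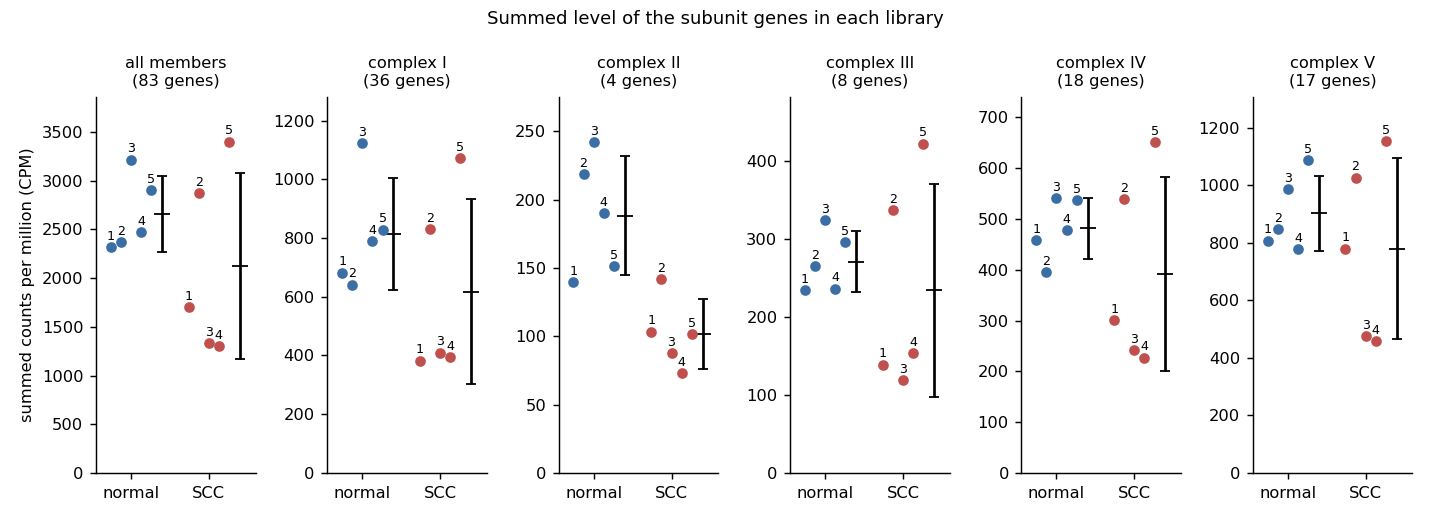
Summed CPM (y axis, from 0) of all members and of each complex in each library; points are libraries with their replicate number, and bars to their right give the mean ± SD of 5. For all members, SCC 1, SCC 3 and SCC 4 lie at 1306 to 1705 CPM and SCC 2 and SCC 5 at 2873 and 3401 CPM, while for complex II all but SCC 2 lie below the normal libraries.

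Complex IV, cytochrome c oxidase, had 1 of 14 tested members lower (7.14%, beside 8.68% of all genes), 0 higher and a median of -0.38. Its summed CPM was 395 to 541 in normal lung and 301, 539, 242, 227 and 651 in SCC 1 to SCC 5. With Ndufa4 and Ndufa4l2 counted in, the sum was 412 to 585 in normal lung and 848 in SCC 5. The member that fell, Cox4i2, is the second isoform of subunit 4, found mainly in lung and linked to oxygen sensing there. Cox4i2 (GRCm38 chr2:152754173-152765037, plus strand) and the common isoform Cox4i1 (chr8:120668222-120674207, plus strand) were 62.7% identical over their aligned coding sequences, and their longest identical run was 14 bases. Aligned stretches of 120 coding bases, from coding base 229 of Cox4i1 and 238 of Cox4i2, show how the counted genes can be told apart; capitals mark the 31 bases that differ.
Cox4i1: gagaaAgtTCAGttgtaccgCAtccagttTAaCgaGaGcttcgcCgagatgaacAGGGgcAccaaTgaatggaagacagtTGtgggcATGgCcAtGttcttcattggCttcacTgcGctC
Cox4i2: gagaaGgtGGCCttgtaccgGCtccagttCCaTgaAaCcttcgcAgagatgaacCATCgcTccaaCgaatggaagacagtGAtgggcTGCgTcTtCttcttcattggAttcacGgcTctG
The sequences are from GENCODE M21.

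Cox4i2 had 14.9, 49.5, 45.9, 44.7 and 34.8 CPM across normal 1 to 5, against 8.23, 3.31, 3.82, 12.7 and 1.75 CPM across SCC 1 to 5. Every SCC library was below every normal library, and the lowest values were in SCC 5, SCC 2 and SCC 3. Cox4i2 met the main filter through normal lung, as its counts were only 9, 13, 7, 13 and 4 across SCC 1 to 5. The estimated background came to 18.2% of these counts. The mean was 38.0 ± 14.0 CPM in normal lung and 5.96 ± 4.46 CPM in SCC (SD, n = 5 each), a log2 fold change of -2.74 (SE 0.63, edgeR adjusted p = 0.00223). It was called lower in all 22 alternative analyses, with log2 fold changes from -4.63 to -2.22 and adjusted p-values up to 0.0220. With SCC 2 and SCC 5 alone it was -3.88 (SE 0.83, adjusted p = 0.00361). Of the markers of vessel walls, 6 of 10 smooth muscle and pericyte markers and 10 of 10 endothelial markers fell. So did 12 of 12 alveolar type 2 and 9 of 10 alveolar type 1 markers, beside 8.68% of all genes. The other alveolar type 1 marker, Aqp5, rose (log2 2.2, SE 0.47), with every SCC library above every normal library. The pericyte markers Rgs5 (log2 1.59, SE 0.87), Cspg4 (1.06, SE 0.47) and Higd1b (-0.86, SE 0.80) did not pass the test, while Pdgfrb, found on pericytes and fibroblasts, fell by 1.41 on the log2 scale. The summed CPM of the smooth muscle and pericyte markers was 791 to 1362 in normal lung against 214 to 411 in SCC, that of the endothelial markers was 4652 to 6257 and 353 to 560, and none of these vessel wall markers was at 0 in a whole group. Their part in the fall of Cox4i2 was not tested.

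Cox4i1 had 58.8, 29.7, 61.7, 35.5 and 84.7 CPM across normal 1 to 5, against 9.15, 49.9, 32.2, 20.5 and 93.0 CPM across SCC 1 to 5. The groups overlapped, and the log2 fold change was -0.38 (SE 0.49, edgeR adjusted p = 0.643). Per kb of coding length, the level of Cox4i1 was 107 CPM in normal lung and 80.7 CPM in SCC, and that of Cox4i2 was 73.6 CPM and 11.5 CPM. The ratio of Cox4i2 to Cox4i1 counts was 0.255, 1.66, 0.745, 1.26 and 0.413 across normal 1 to 5, against 0.905, 0.0687, 0.126, 0.628 and 0.0212 across SCC 1 to 5. The low ratios were in SCC 2, SCC 3 and SCC 5, and the groups overlapped (log2 difference -2.12, exact two-sided permutation p = 0.103, 0.333 adjusted over 6 isoform pairs). The change of Cox4i2 was thus not shown to differ from that of Cox4i1. Exons of Cox4i1 overlap those of Emc8 on the opposite strand.

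**Figure D5:**
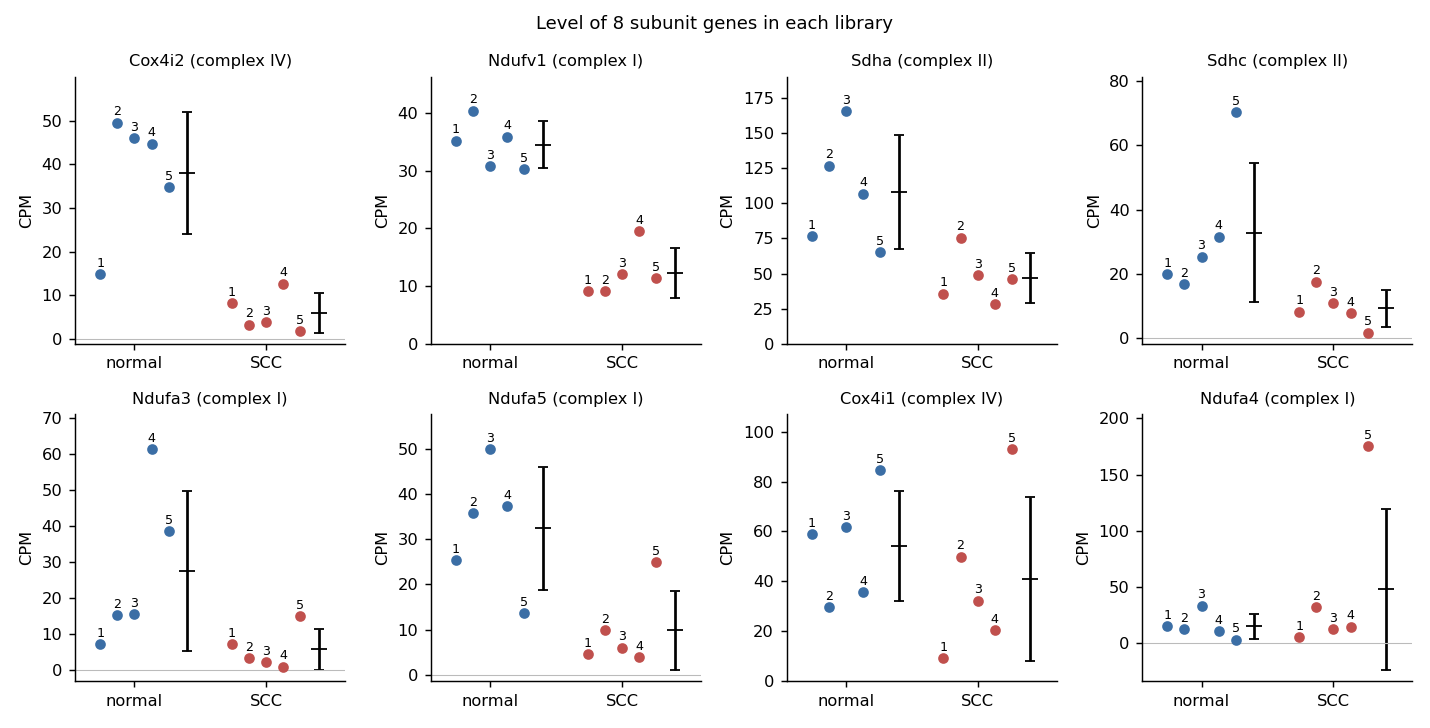
CPM (y axis) of 8 subunit genes in each library; points are libraries with their replicate number and bars to their right give the mean ± SD of 5. Cox4i2 and Ndufv1 show no overlap between the groups, the groups overlap for Cox4i1, and the mean of Ndufa4 in SCC is set by SCC 5 at 175 CPM.

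Other tissue-linked isoforms of complex IV gave no call. Cox6a2, the isoform of heart and skeletal muscle, had 3.05 to 33.3 CPM in normal lung and 7.32, 0.509, 8.74, 7.79 and 1.32 CPM in SCC 1 to SCC 5 (log2 -1.27, SE 0.89), beside -1.05 (SE 0.51) for the common Cox6a1. Heart muscle markers, which the wall of the pulmonary veins holds in mice, fell in 7 of 9 tested cases, beside 8.68% of all genes. Their summed CPM of 1285 to 2386 in normal lung compared with 185 to 875 in SCC. Their part in the value of Cox6a2 was not tested. Cox6b2, known from testis, was at -1.07 (SE 0.87) and the common Cox6b1 at 0.79 (SE 0.50). The ratio of Cox6b2 to Cox6b1 differed by -1.53 log2 units between SCC and normal lung (exact permutation p = 0.111, adjusted 0.333), and the ratio of Cox6a2 to Cox6a1 by -0.15 (p = 0.889). Among the common subunits, Cox8a, the most abundant by mean CPM over all libraries, had 54.1 to 83.8 CPM in normal lung and 68.6, 99.0, 30.6, 39 and 78.5 CPM in SCC 1 to SCC 5 (log2 -0.15, SE 0.38). Cox5a lay within 17.5 to 20.7 CPM in normal lung but ran over 7.32, 36.1, 9.83, 1.95 and 12.7 CPM in SCC 1 to SCC 5 (log2 -0.45, SE 0.65). Cox7a2 was at 0.22 (SE 0.58) and Cox7b at 0.71 (SE 0.49).

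Complex V, the ATP synthase, had 0 of 16 tested members called (all genes: 8.68% lower, 12.5% higher) and a median of -0.32. Its summed CPM was 779 to 1088 in normal lung and 779, 1026, 475, 459 and 1154 in SCC 1 to SCC 5, so SCC 3 and SCC 4 were below the normal range. Atp5b, the catalytic beta subunit and the most abundant member of the whole set by mean CPM over all libraries, had 137, 216, 222, 128 and 215 CPM across normal 1 to 5, against 137, 212, 91.2, 76.9 and 309 CPM across SCC 1 to 5 (log2 -0.15, SE 0.39, edgeR adjusted p = 0.840). The alpha subunit Atp5a1 was at -0.48 (SE 0.39). The 3 genes for the c subunit of the rotor, which encode the same mature protein, were at -0.87 (SE 0.68, Atp5g1), 0.40 (SE 0.51, Atp5g2) and -0.33 (SE 0.46, Atp5g3). Their coding sequences were 66.6% to 68.5% identical in pairs. The ratios Atp5g1 to Atp5g2 and Atp5g3 to Atp5g2 did not pass the exact permutation test (adjusted p = 0.583 each). Ndufa4l2 to Ndufa4, the last pair, gave an adjusted p of 0.714.

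The highest positive value in the set was that of Atp5sl, chosen here after its values were seen, which encodes an assembly factor of complex I despite its name. It had 3.99, 8.38, 12.5, 6.58 and 10.6 CPM across normal 1 to 5, against 64.0, 8.40, 16.9, 41.9 and 14.5 CPM across SCC 1 to 5. All SCC libraries but SCC 2 were above every normal library, with SCC 1 and SCC 4 highest. The log2 fold change was 1.77 (SE 0.65, edgeR adjusted p = 0.0538), it was called in 7 of 22 alternatives, and with SCC 2 and SCC 5 alone it was 0.40 (adjusted p = 0.864). With the receptor covariate its direction turned, to -0.24 (adjusted p = 0.939).

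The 9 members below the filter were Ndufb2, Ndufb3, Ndufb6 and Ndufs5 of complex I, Cox7a1, Cox7b2, Cox8b and Cox8c of complex IV, and Atp5s. Cox8c, the testis isoform of subunit 8, had counts of 0, 0, 1, 0 and 1 across normal 1 to 5, against 24, 34, 10, 6 and 1 across SCC 1 to 5. All SCC libraries but SCC 5 were above every normal library. Summed over libraries this is 75 counts against 2, a ratio of 56.6 (exact 95% interval 15.1 to 476, counting error only) after scaling by total counts. The filter kept it out of the main test, and it could pass other filters only through its SCC counts, so no call is given. The estimated background came to 4.67% of its SCC counts.

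The remaining untested members had few counts. Atp5s, known as a factor that couples with ATP synthase, had 10.2, 45.7, 1.63, 10.5 and 0.757 CPM across normal 1 to 5, against 0, 0.509, 1.09, 4.87 and 0 CPM across SCC 1 to 5, a ratio of 0.110 (0.0489 to 0.215) from 9 against 124 counts. It could pass other filters only through its normal counts, so no call is given, and the estimated background was larger than its SCC counts (108%). Cox7b2, a testis isoform, had 0 counts in normal lung and 8 in SCC, and its estimated background came to 49.9% of those. For the muscle isoforms Cox7a1 and Cox8b the ratio of SCC to normal counts was 0.943 (0.460 to 1.87) and 2.41 (1.22 to 4.95). For Ndufb2, Ndufb3, Ndufb6 and Ndufs5 it was 0.802 (0.599 to 1.07), 0.748 (0.535 to 1.04), 1.69 (1.13 to 2.54) and 0.412 (0.198 to 0.793). These intervals leave out the spread between libraries.

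Other mitochondrial gene lists were described by the same fit, in which 12.5% of all genes rose and 8.68% fell. Of the 35 tested assembly factors, 2 rose and 0 fell (median 0.18). Acad9, which helps assemble complex I, had 37.4, 60.2, 32.8, 23.7 and 43.1 CPM across normal 1 to 5, against 401, 96.7, 886, 704 and 151 CPM across SCC 1 to 5 (log2 3.51, SE 0.53). The groups did not overlap, and the 3 libraries with high receptor signal had the highest values. With SCC 2 and SCC 5 alone the value was 1.63 (SE 0.44, adjusted p = 0.0187), with the receptor covariate 0.28 (adjusted p = 0.840). Atpaf2, an ATP synthase assembly factor, rose by 2.16 (SE 0.60, edgeR adjusted p = 0.0109), and gave 1.70 (adjusted p = 0.245) with SCC 2 and SCC 5 alone. Of 18 genes for electron carriers and transport, 1 rose: Ckmt1, the mitochondrial creatine kinase of epithelia, with 2.18 to 14.5 CPM in normal lung and 31.1, 26.7, 23.5, 32.1 and 147 CPM in SCC 1 to SCC 5 (log2 2.70, SE 0.64), and 3.40 (SE 0.71, edgeR adjusted p = 0.00279) with SCC 2 and SCC 5 alone.

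Of 16 regulators of mitochondrial biogenesis, 1 rose, beside 12.5% of all genes. Ppargc1b, a coactivator of nuclear genes for mitochondria, had 2.27 to 15.8 CPM in normal lung against 21.9 to 49.7 CPM in SCC, without overlap (log2 1.93, SE 0.61), and gave 1.44 (edgeR adjusted p = 0.346) with SCC 2 and SCC 5 alone. The factors Nrf1 (log2 -0.81, SE 0.47), Gabpa (-0.42, SE 0.49) and Yy1 (0.03, SE 0.46), named here because promoters were searched for their motifs, did not pass the test. The 20 citric acid cycle genes gave 0 calls in either direction and a median of -0.31, and their summed CPM was 879 to 1264 in normal lung, 1048 and 1064 in SCC 2 and SCC 5 but 589, 688 and 538 in SCC 1, SCC 3 and SCC 4. The 71 mitochondrial ribosome genes also gave 0 calls, with a median of 0.26. Their summed CPM was 1059 to 1175 in all 5 SCC libraries and 779 to 1070 in normal lung, and so did not split the tumours. The 92 cytosolic ribosome genes, which are short like the subunit genes, had 3 higher and 0 lower, beside 12.5% and 8.68% of all genes. These were Rpl12 (123 ± 14.4 CPM in normal lung, 266 ± 123 CPM in SCC), Rps2 (134 ± 24.5 and 266 ± 87.8 CPM) and Rps15a-ps6 (0.730 ± 0.659 and 8.93 ± 5.38 CPM; SD, n = 5 each), the last named as a pseudogene, so its reads may be shared with Rps15a. The whole list's summed CPM of 10980, 21360, 7835, 8179 and 27940 in SCC 1 to SCC 5 was high in SCC 2 and SCC 5, beside 11460 to 13410 in normal lung.

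Promoters of nuclear subunit genes are known to be bound by NRF1, by the ETS factor GABPA and by YY1. The window from 250 bases before to 50 bases after the start (RefSeq, GRCm38) was found for 65 members, as 70 promoters, and each was searched on both strands for 3 cores of 7 letters: GCATGCG (NRF1), CCGGAAG (ETS) and AAGATGG (YY1). The NRF1 core was in 15.7% of the members' promoters and in 4.55% of all 20788 promoters of genes in the table. The ETS core was in 22.9% against 11.5%, the YY1 core in 14.3% against 6.39%, and any of the 3 in 42.9% against 20.4%. Such a match is a description of letters and not of binding. Members with no entry include Cox4i1, Cox4i2, Sdhc and Ndufs1. Of the 4 members that fell and have an entry, Ndufa3 holds the YY1 core, and Sdha, Ndufv1 and Ndufa5 hold none of the 3.

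Stretches before the start of 4 members, chosen after their values were seen, are printed to show the cores in place, in capitals, written in the direction of the gene; where the NRF1 core runs into its own reverse complement, both are in capitals. They are free of annotated exons. Ndufa11 (chr17:56717686-56717761, plus strand) and Ndufa6 (chr15:82354323-82354391, minus strand) hold the NRF1 core, and Uqcrh (chr4:116075072-116075170, minus strand) and Sdhd (chr9:50603850-50603909, minus strand) the ETS core.
Ndufa11: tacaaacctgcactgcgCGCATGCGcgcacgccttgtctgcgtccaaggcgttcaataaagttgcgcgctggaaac
Ndufa6: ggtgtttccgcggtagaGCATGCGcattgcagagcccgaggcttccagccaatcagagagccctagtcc
Uqcrh: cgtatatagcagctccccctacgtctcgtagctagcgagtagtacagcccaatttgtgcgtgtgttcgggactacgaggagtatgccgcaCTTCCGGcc
Sdhd: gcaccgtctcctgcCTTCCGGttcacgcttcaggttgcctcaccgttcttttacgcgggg
None of these 4 genes passed the main test: their log2 fold changes were 1.20 (SE 0.59), -0.30 (SE 0.65), -0.19 (SE 0.44) and -0.23 (SE 0.52) in that order. Ndufa11 was called higher by the DESeq2 Wald test (adjusted p = 0.0401) and by limma-voom (adjusted p = 0.0313). Uqcrh was called lower by limma-voom (adjusted p = 0.00225), and Ndufa6 and Sdhd were called in no alternative.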

How the data were processed

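RNA-seq counts of 5 normal lung and 5 lung SCC libraries were used as deposited by the authors, in a table of 24421 gene symbols with whole-number counts that were not normalized. Build mm10 and the tools cutadapt 1.9.1, TopHat2 2.0.1 and HTSeq 0.6.1, besides DESeq2, are named in the submitters' processing notes. Not given in the sources used here are the annotation, the strand setting of the counting and the handling of reads with several positions.

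Members were the rows whose symbols match the naming patterns of complex I to V subunits. Genes named as assembly factors (such as the Ndufaf genes) are not matched, while Atp5s, Atp5sl and Cox7a2l are, and some complex I genes are not reported here by name. The members and the other lists were chosen with earlier results of these data known. Values named in the text are those of called members, catalytic or core subunits, isoform sets, the most abundant member of each complex, untested members and the called genes of other lists (at most 4 per direction). Genes named outside that rule are marked as chosen after their values were seen, and the isoform ratios, length classes and count ratios were added after seeing the data.

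Counts were fitted in R 4.3.3 with edgeR 4.0.16 (filterByExpr by group, TMM factors, robust quasi-likelihood test, no covariate), on the whole table, and p-values were adjusted by Benjamini-Hochberg over the 13203 genes tested. A gene was called at an adjusted p under 0.05. CPM are counts divided by the TMM-scaled library size and multiplied by 1000000. The test was checked on counts simulated for this comparison (11254 genes tested): of genes changed by log2 3, 2 and 1 it called 25 of 25, 15 of 25 and 3 of 50 that rose, and 18 of 20, 7 of 22 and 1 of 45 that fell, and 1 of 11067 unchanged genes. The simulation changed far fewer genes than were called here. It also gave all libraries of a group the same mean, without the split among the SCC libraries. These rates therefore need not hold in the data. Alternatives were other scaling factors, filters and tests (DESeq2 1.42.0, limma 3.58.1), removal of structural RNA and histone genes, each library left out, and treatments of the receptor signal described in the report. Coding lengths and coordinates were read from GENCODE M21 on GRCm38 (mm10). Of the symbols, 24046 matched it, 670 of them by an older name, and all 83 members matched. Total counts ran from 1004105 to 6817106 per library, and intervals from counts cover counting error only.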

Additional observations from a re-analysis of the deposited data

Results flagged for a closer look

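In 6 of 64 sets of 5 libraries (the summed levels and the named genes, each group by itself), 1 library stood apart from the other 4 by a large share of the whole range (Dixon's ratio at the 95% level, which chance passes in about 1 of 20 groups). Ndufa4 was high in SCC 5 at 175 CPM, and so was Cox6b1 at 112 CPM. Ndufa5 was also high in SCC 5, at 25.0 CPM among SCC values otherwise under 10 CPM. Ndufv1 was high in SCC 4 at 19.5 CPM, although still below every normal library. Sdhc was high in normal 5 at 70.4 CPM, and Atp5g2 in SCC 1 at 133 CPM.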

How the results depend on the processing

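Cox4i2 was called lower in all 22 alternatives, Ndufv1 and Sdha in 16, Ndufa3 in 15, Sdhc in 14 and Ndufa5 in 10. Higher and lower calls among the members numbered 1 and 5 with DESeq2 size factors, 1 and 3 with upper-quartile factors, 1 and 2 with total counts alone, 2 and 11 with no filter, 3 and 6 with the DESeq2 Wald test, 2 and 25 with limma-voom, 1 and 1 with SCC 2 and SCC 5 alone, 3 and 1 with the receptor covariate, and 0 and 3 with the receptor background subtracted. With a filter of 1 CPM in 5 libraries, without robust estimation, or without structural RNA and histone genes, the members gave 0 higher and 6 or 7 lower calls. The share of all genes called ranged widely too. It was lowest at 3.7% lower with the receptor covariate and 4.14% higher with SCC 2 and SCC 5 alone. Limma-voom gave the largest shares, with 20.9% lower and 24.7% higher. With no filter 23.9% of all genes were higher and 9.04% lower, and with the DESeq2 Wald test 16.6% and 9.37%. The filter of 1 CPM in 5 libraries gave 20.6% higher and 6.63% lower. Leaving out 1 library at a time gave 0 to 3 higher and 2 to 8 lower calls. Over all genes these fits called 9.49% to 14.8% higher and 7.35% to 10.9% lower. The median of complex II was then between -1.08 and -0.68. The tallies of members include Cox8c (higher in 6 leave-one-out fits and 1 other) and Atp5s (lower in 2 and 2 others). Both are below the main filter and passed those filters only through 1 group, so they are not given as calls. Cox4i2 and Ndufa3, with low counts in most SCC libraries, met the main filter through normal lung. With no filter both were still called lower (edgeR adjusted p = 2.75e-05 and 0.00266). Receptor signal did not overlap between the groups, so values from the covariate fit are extrapolated and not adjusted estimates. The receptor covariate turned the medians positive: 0.63 for all members and 0.49, 0.033, 1.09, 1.08 and 0.67 for complexes I to V. It also turned Ndufa5 to 0.36 and Atp5sl to -0.24. The cause was not tested. SCC 2 and SCC 5 alone also turned 5 of these 6 medians positive, and 32 values of single named members changed sign in some alternative without a call on either side. The median of all genes tested moved from 0.07 to 0.26 with upper-quartile factors, 0.25 with total counts and 0.71 with no filter. With Ndufa4 and Ndufa4l2 counted in complex IV, the median of complex I was -0.46 and that of complex IV -0.35.

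No paired analysis was possible because the labels give no replicate numbers that the groups share. Depth limits the members: the median member had 10 counts in SCC 1 and 13 in SCC 4, and 9 members could not be tested.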
